A study of Mus musculus with 8 samples.

Results

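Nono and Tbp, which encode nuclear proteins that act on RNA and on transcription, were followed in mouse skeletal muscle between birth and adulthood. Each has a probe with 20 spots on the array that is named by a RefSeq transcript, NM_023144.2 for Nono and NM_013684.3 for Tbp. The array holds 13 further genes with such a probe, and Nono and Tbp were chosen with earlier results of these data known. They are 2 of 112 genes that carry a symbol on this array of 59709 probes, most of which have only vendor, lincRNA or ultraconserved-region identifiers. The samples were skeletal muscle of ICR mice, an outbred stock, at postnatal day 0 (D0, 4 arrays) and postnatal day 65 (D65, 4 arrays), and the series asked which long noncoding RNAs differ between these ages. No treatment or genetic change is labelled in either group, and the labels name neither the muscle taken nor the sex of the mice, and do not say whether animals were pooled or sampled once each. The p-values below therefore rest on sample-to-sample spread alone, and that spread may be technical.

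NONO (also called p54nrb) is an RNA- and DNA-binding protein of the DBHS family. It pairs with its relatives SFPQ and PSPC1, gathers on the long noncoding RNA Neat1 to build nuclear bodies called paraspeckles, and also takes part in transcription, splicing and DNA repair. TBP is the TATA-binding protein, which with its associated factors (TAFs) forms TFIID, the complex that places RNA polymerase II at promoters, and it also serves in the initiation complexes of RNA polymerases I and III. Both genes are active in nearly all cell types, and TBP is a common reference in quantitative PCR. In the weeks after birth skeletal muscle fibres enlarge, precursor cells leave the cell cycle and adult contractile proteins replace the neonatal forms.

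The promoters of the members are shown as a description of their start regions, and no link between these sequences and the levels below was tested. The windows run from 250 bases before to 50 bases after the transcript start in RefSeq, on the plus strand of GRCm38.p6, at chrX:101429401-101429700 for Nono and chr17:15499638-15499937 for Tbp. Capitals mark matches, on either strand, to 5 motifs, namely TATAAA (the core promoter box bound by TBP), CCAAT (a box bound by NF-Y), GGGCGG (a box bound by Sp factors), CGGAAG (a core bound by ETS factors) and GCATGCGC (a core bound by NRF1), which were picked with both sequences in view.
Nono: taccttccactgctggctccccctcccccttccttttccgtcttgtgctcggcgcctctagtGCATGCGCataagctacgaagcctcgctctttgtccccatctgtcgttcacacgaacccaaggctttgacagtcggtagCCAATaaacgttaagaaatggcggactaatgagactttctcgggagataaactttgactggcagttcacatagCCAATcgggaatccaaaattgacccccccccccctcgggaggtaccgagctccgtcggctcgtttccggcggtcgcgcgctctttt
Tbp: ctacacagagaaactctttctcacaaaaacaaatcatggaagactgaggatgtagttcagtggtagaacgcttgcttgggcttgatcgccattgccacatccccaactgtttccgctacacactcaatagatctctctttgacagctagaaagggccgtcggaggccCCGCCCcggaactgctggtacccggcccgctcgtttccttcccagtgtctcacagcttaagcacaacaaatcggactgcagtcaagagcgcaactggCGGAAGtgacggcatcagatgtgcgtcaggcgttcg

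Neither window holds the letters TATAAA, which occur in 13.6% of the 32851 promoter windows of this length. The Nono window holds CCAAT at positions -109 to -105 and -36 to -32 from the start, a motif found in 37.4% of windows, and GCATGCGC at -188 to -181, found in 2.7%. The Tbp window holds GGGCGG on the opposite strand at -83 to -78 (35.7% of windows) and CGGAAG at positions 15 to 20 past the start (16.9% of windows). None of the 5 motifs lies in both windows. As the motifs were picked with both sequences in view, this is not a result about what the promoters share. Both windows are rich in CG dinucleotides, with 23 for Nono and 17 for Tbp against a median of 7, while their GC contents of 55.7% and 53.3% lie near the median of 52.7%. A match here is a description of letters, not of a bound site. In the gene table Nono lies between Zmym3 and Itgb1bp2 on the X chromosome and Tbp between Psmb1 and Pdcd2 on chromosome 17, and none of these neighbours has a named probe.

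Each array measured Cy3-labelled RNA, and 52.3% to 68.4% of its probes were well above background. A level below is log2 of the processed signal, averaged over a probe's spots, minus the 75th percentile of all probes on that array. A probe is called changed where its adjusted p is under 0.05 and its log2 difference is at least 1. D0 replicate 4 stood apart over the whole array. The 75th percentile of its signals was 136.5, where the other D0 arrays had 255.7 to 309.2 and the D65 arrays 120.6 to 151.4, and it had 54 outlier spots against 21 to 26. The age differences of Nono and Tbp are therefore given with and without this array. All D0 arrays lay in the first row of the slide and all D65 arrays in the second, so slide row and age cannot be told apart. Of 47 marker genes of muscle and of other cell types, 0 have a named probe, so the tissue label and its cell makeup could not be checked.

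The spots of both probes were precise within an array. All 160 Nono spots and all 160 Tbp spots were well above background and 0 were saturated, with 10 Nono spots and 4 Tbp spots left out as outliers. The SD of log2 signal among the spots of an array was 0.019 to 0.082 for Nono and 0.064 to 0.167 for Tbp. Nono spots were 35.8 to 266 times as bright as the local background, and Tbp spots 6.07 to 33.6 times. The spots of a probe are repeats of one measurement, so the ages were compared over arrays.

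Nono was lower in adult muscle. Its level was 5.16, 4.99, 5.04 and 3.61 on D0 replicates 1 to 4, and 3.39, 3.57, 3.43 and 3.50 on D65 replicates 1 to 4. The first 3 D0 arrays lay far above all others, and D0 replicate 4 lay just above the D65 arrays, by 0.032. The mean was 4.70 ± 0.73 in newborn muscle (SD, n = 4) and fell 2.35-fold, to 3.47 ± 0.08 in adult muscle (SD, n = 4). The log2 difference was -1.23 (SE 0.33, 95% interval -1.97 to -0.49), with a limma adjusted p of 0.0193. The exact two-sided permutation test gave p = 0.0286, the smallest that 4 arrays against 4 allow. In whole muscle, fewer cells that carry a transcript and less of it per cell cannot be told apart.

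The call of Nono rested on several single arrays. Without D0 replicate 4, which raised the D0 spread, Nono fell by 1.59 on the log2 scale, or 3.02-fold, with a limma adjusted p of 0.00019. Without D0 replicate 1, 2 or 3 the differences were -1.08, -1.13 and -1.12, and the adjusted p of 0.0546, 0.0543 and 0.0525 missed the threshold. Over all alternatives the adjusted p of Nono ranged from 0.000123 to 0.26. With 3 arrays against 4, no exact permutation p under 0.0571 is possible. With all arrays, the exact permutation p of Nono was 0.114 after quantile normalization, 0.0857 after scaling to the median of all probes and 0.0571 with no scaling, while limma called Nono in all of these.

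Tbp was lower at D65 on average but did not pass the test, and the sign of its difference turned under 1 other scaling of all 8 arrays, given below. Its level was 1.78, 1.86, 2.05 and 0.34 on D0 replicates 1 to 4, and 0.44, 0.81, 1.08 and 1.11 on D65 replicates 1 to 4. D0 replicates 1 to 3 lay above every D65 array, and D0 replicate 4 was the lowest of all 8. The means were 1.51 ± 0.79 at D0 and 0.86 ± 0.31 at D65 (SD, n = 4). The log2 difference was -0.65 (SE 0.37), with a limma adjusted p of 0.216 and an exact permutation p of 0.171. Its 95% interval, -1.47 to 0.18, spans 0.

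Tbp was called lower once D0 replicate 4 was set aside. The D0 mean was then 1.90 ± 0.14 (SD, n = 3), and Tbp fell by 1.03, or 2.05-fold, with a limma adjusted p of 0.00569 against a range of 0.00569 to 0.886 over all alternatives of Tbp. With limma's array weights, which count a deviating array less, the difference was -0.81 with an adjusted p of 0.0106, still short of the minimum change. The D65 arrays also differed more among themselves for Tbp (SD 0.31) than for Nono (SD 0.08). The lowest Tbp levels at D65 were on replicates 1 and 2, where 52.3% and 54.2% of all probes were well above background, against 60.7% and 59.2% on replicates 3 and 4. The part of this in the Tbp levels was not tested.

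**Figure D1:**
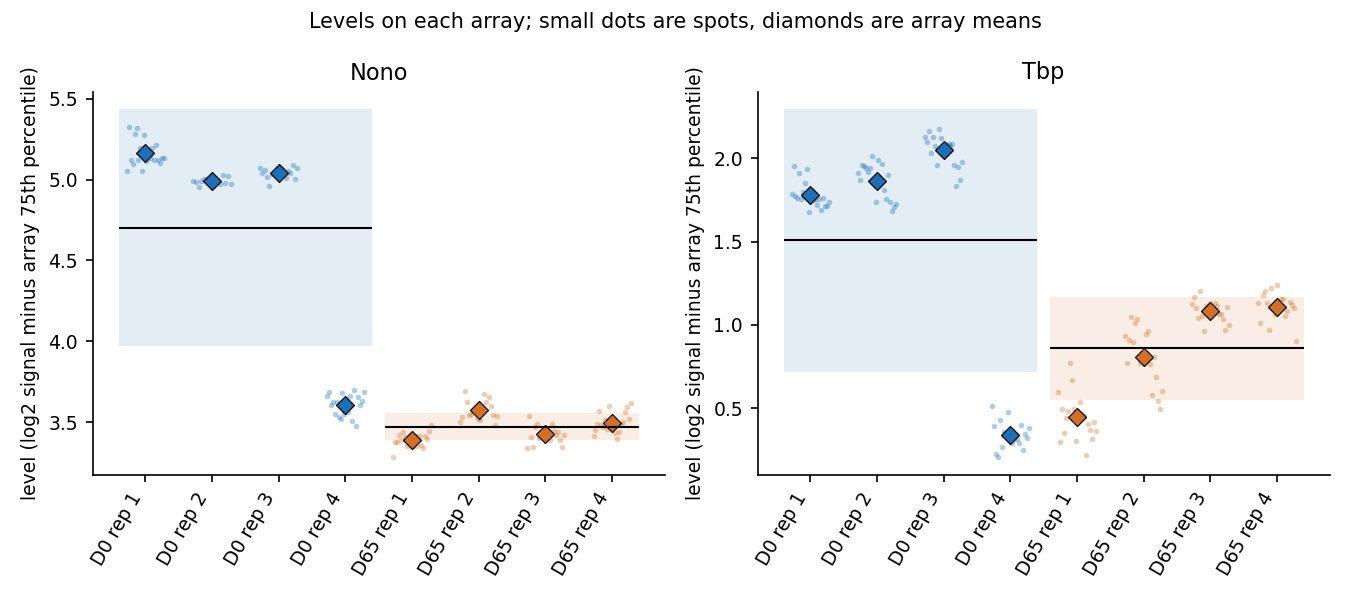
Level (log2 processed signal minus the array's 75th percentile) of Nono and Tbp on each of the 8 arrays, with small dots for spots, diamonds for array means, black lines for the mean of an age and shaded bands for ± 1 SD over 4 arrays. D0 replicate 4 lies just above the D65 arrays for Nono (3.61) and below all of them for Tbp (0.34). The other D0 arrays lie above every D65 array. The sign of the Tbp difference turns when these 8 arrays are scaled to the other repeated genes.

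Set against the array as a whole, a call is common. Of 34948 probes well above background on all 4 arrays of an age, 22.1% were called and 12.6% were called lower, and 1 of the 2 genes, Nono, was among the latter. The levels of the ages did not overlap for 31.5% of probes, and this held for Nono but not for Tbp. Without D0 replicate 4, 14.1% of probes were called lower, Nono and Tbp both among them. Of the called probes 3344 were higher and 4395 lower, a split that moved to 4200 and 3866 when the percentile was taken only over probes detected on each of the 8 arrays, to 9385 and 1889 with the scaling to other repeated genes given below, and to 818 and 10323 with no scaling. The median log2 difference of all these probes was 0.064. The difference of Nono was lower than that of all but 11.3% of them, and that of Tbp lower than all but 21.7%.

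Before scaling the differences were larger, and the arrays themselves were dimmer at D65. The geometric mean of the processed signal of Nono was 9769, 9837, 8424 and 1663 on D0 replicates 1 to 4. On D65 replicates 1 to 4 it was 1384, 1437, 1564 and 1708, so that D0 replicate 4 lay within the D65 values. For Tbp the signals were 935, 1124, 1056 and 173 at D0 and 180, 211, 309 and 326 at D65. The 75th percentile of an array differed by -0.77 between D65 and D0 on the log2 scale, and scaling takes this amount out. Unscaled, Nono fell 3.99-fold (limma adjusted p 0.0162) and the 2.66-fold lower mean of Tbp was not called (adjusted p 0.0754). The unscaled folds without D0 replicate 4 were 6.14 for Nono and 4.16 for Tbp, with no test run on them. With all 8 arrays and relative to the median unscaled difference of all probes, -0.70, the log2 difference was -1.29 for Nono and -0.71 for Tbp. The scaled levels must give the same values, because subtracting 1 amount per array moves all probes alike.

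**Figure D2:**
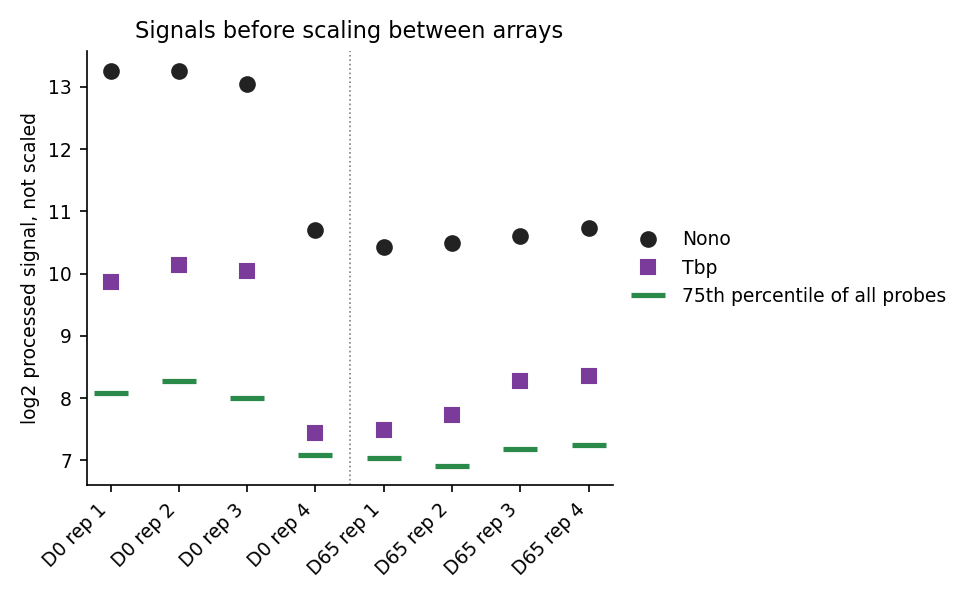
Log2 processed signal of Nono and Tbp before scaling, with the 75th percentile of all probes, on each array. All 3 series drop at D0 replicate 4, but Nono (10.70) and Tbp (7.43) drop more than the percentile (7.09).

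D0 replicate 4 was low for both genes by nearly the same amount. The level of Nono there deviated from the mean of the other D0 arrays by -1.46 on the log2 scale, a 2.75-fold lower level, and that of Tbp by -1.56, or 2.94-fold. Before scaling the deviations were -2.49 and -2.58, where that of the array's 75th percentile was -1.03. Among all kept probes, 6.0% had a lower deviation on this array than Nono and 5.3% a lower one than Tbp, so the members were near the edge of a broad spread.

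The balance between the members changed with age, and D0 replicate 4 did not stand apart in it. Subtracting the log2 signal of Tbp from that of Nono on the same array cancels any scaling that shifts a whole array by 1 amount. It does not cancel quantile normalization or normexp background correction, with which the age difference was -0.51 and -0.74. The result carries the unknown efficiencies of both probes, so that only its change can be read. Nono minus Tbp was 3.38, 3.13, 3.00 and 3.27 on D0 replicates 1 to 4, and 2.94, 2.77, 2.34 and 2.39 on D65 replicates 1 to 4. Every D65 array lay below every D0 array, narrowly so for D65 replicate 1 (2.94) against D0 replicate 3 (3.00). D0 replicate 4 lay among the other D0 arrays. The levels of the ages did not overlap for 31.5% of single probes, and the share among pairs of genes was not computed. The mean fell from 3.19 ± 0.17 to 2.61 ± 0.29 (SD, n = 4), a difference of -0.58 (exact two-sided permutation p = 0.0286, the smallest possible here). Nono thus differed between the ages by more than Tbp did on these arrays. A p at its floor shows that the arrays of the ages separate, not by how much. On D65 arrays Tbp spots were 6.07 to 11.6 times as bright as the background and Nono spots 35.8 to 53.5 times. The part of this in the difference was not tested. Without D0 replicate 4 the difference was -0.56.

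**Figure D3:**
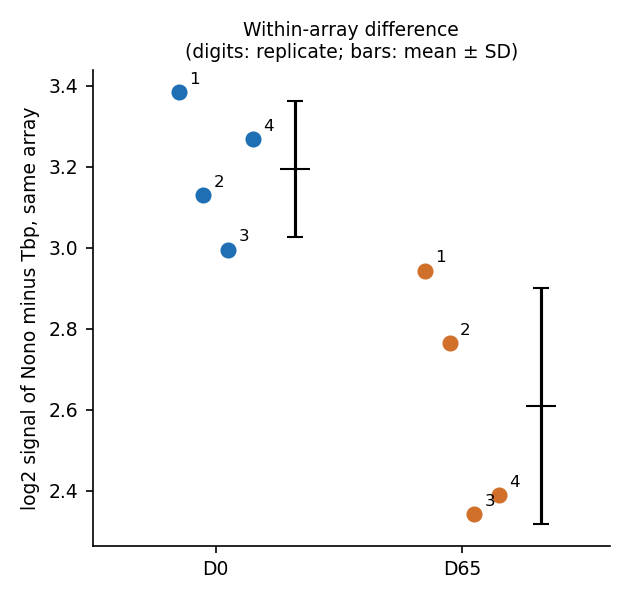
Log2 signal of Nono minus that of Tbp on the same array, by age, with the replicate number beside each point and bars for the mean ± SD of 4 arrays. The D0 arrays span 3.00 to 3.38 and the D65 arrays 2.34 to 2.94, with no overlap.

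The comparison with other reference genes turned on how those genes moved. The array holds 13 further genes with 20 spots each, from Actb and Gapdh to Hprt, and many of them serve as references in quantitative PCR. Of these, 5 were called lower at D65, against 12.6% of all kept probes, and 0 were called higher. Their median log2 difference was -0.67, with a range of -2.22 to 0.98, against 0.064 over all probes. Ldhal6b, 1 of the 5, was the dimmest of the 13, with a mean level of -2.59 at D0 and -4.04 at D65. From the largest fall to the largest rise among the 15 genes, Nono was number 5 and Tbp number 9. With D0 replicate 4 left out they were numbers 3 and 7. Of the 13 others 5 were then called lower, against 14.1% of all kept probes. Called higher was 1, B2m, a subunit of MHC class I (log2 difference 1.102, limma adjusted p 0.00364). The median difference of the 13 was then -0.51.

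When each array was scaled to the median of these 13 genes in place of its 75th percentile, the differences of both members shrank. That median is the level of the middle gene on an array, which need not be the same gene on each array. Relative to the 75th percentile it was 6.59, 6.42, 6.73 and 5.47 on D0 replicates 1 to 4 and 5.51 to 5.69 on D65 arrays. It was thus low on D0 replicate 4, although the median deviation of the 13 genes there was 0.29. With this scaling Nono stood at -1.42, -1.43, -1.69 and -1.86 on D0 replicates 1 to 4 and at -2.12, -1.96, -2.27 and -2.11 on D65 replicates 1 to 4, in log2 units relative to that median. The D65 arrays were still all lower, by -0.51 on average, but Nono was not called (limma adjusted p 0.26, exact permutation p 0.0286). Tbp stood at -4.81, -4.55, -4.68 and -5.13 at D0 and at -5.06, -4.72, -4.61 and -4.50 at D65, with overlapping ages. Its difference of 0.07 (95% interval -0.71 to 0.86) had the opposite sign to the one above. Without D0 replicate 4 the sign did not turn: Tbp then differed by -0.04 (95% interval -0.52 to 0.44, limma adjusted p 0.87) and Nono by -0.60 (adjusted p 0.0186), and neither was called. With all 8 arrays, this scaling moves the median difference of all probes from 0.064 to 0.78, and 5.41% of probes are then called lower, neither member among them. Relative to that median, the difference was -1.29 for Nono and -0.71 for Tbp. Any scaling that subtracts 1 amount per array must give these values, so their match with the unscaled ones is not a result.

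D0 replicate 4 did not move all of the repeated genes one way. Besides Nono and Tbp, Actb, the cytoplasmic actin, deviated from the other D0 arrays by -1.36 there, and Hsp90ab1, a cytosolic chaperone, by -1.35. The other 11 genes deviated by -0.31 to 0.96 and the median of the 13 was 0.29, so that a change of scale would not bring all of them level. Actb and Hsp90ab1 were named after their values were seen.

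**Figure D4:**
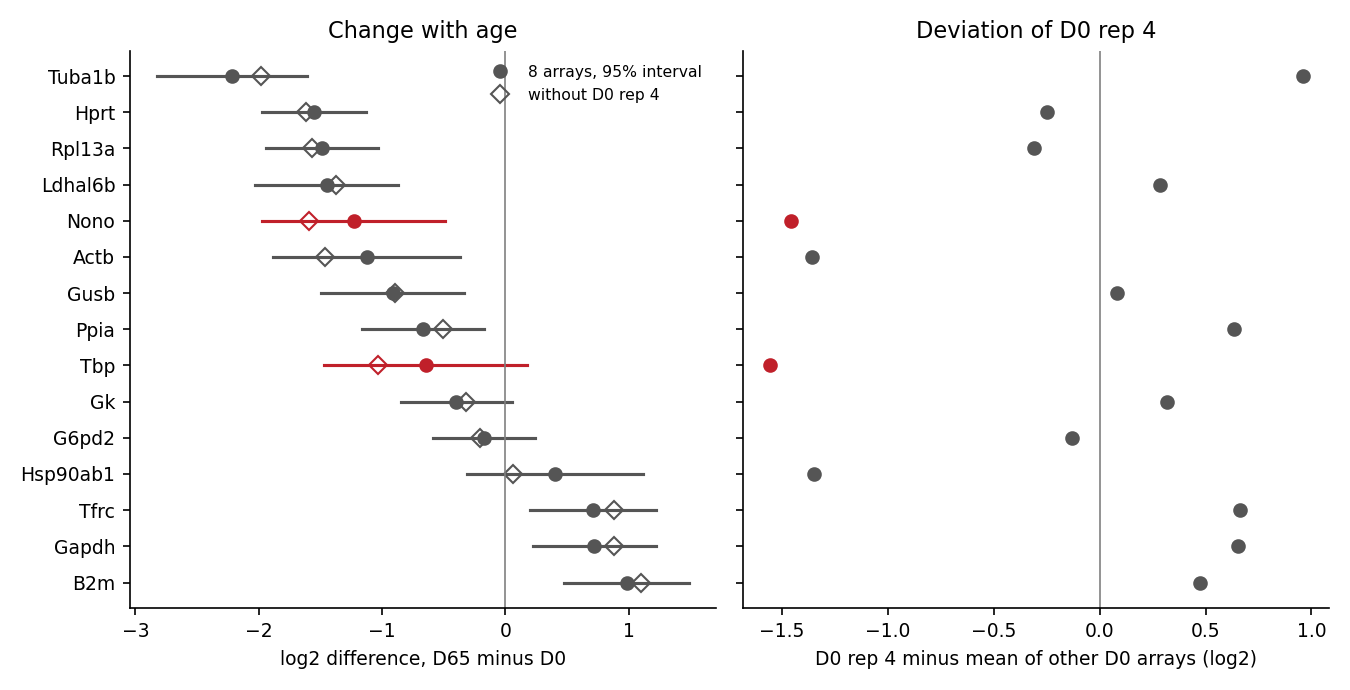
Left, log2 difference D65 minus D0 of the 15 genes with 20 spots, with 95% intervals from limma on 8 arrays (filled) and the value without D0 replicate 4 (open). Right, the level on D0 replicate 4 minus the mean of the other D0 arrays, where Tbp (-1.56), Nono (-1.46), Actb (-1.36) and Hsp90ab1 (-1.35) lie apart from the rest.

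The genes most like the members were sought among 72 others with a symbol, by Pearson correlation of levels over the 8 arrays. These r values describe 8 arrays of 2 ages and share any scaling, so they carry no test. For Nono the closest was Actb (r = 0.964), then Tbp (0.887), Rpl13a, a ribosomal protein (0.856), Hprt, a purine salvage enzyme (0.849), and Aida (0.788). For Tbp the order was Actb (0.935), Nono (0.887), the transcribed pseudogene Zf12 (0.784), Gm4312 (0.624) and Hprt (0.609). Over all 8 arrays Actb headed both lists. Without D0 replicate 4 it still led the 5 genes named for Tbp (0.980), but for Nono it came after Hprt (0.983) and Rpl13a (0.975), with 0.962. Without that array the correlation of Nono with Tbp was 0.922 and that of Tbp with Hprt rose from 0.609 to 0.927.

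Partners of the members were mostly not measured under a name. Of 61 genes listed as paraspeckle proteins and partners of NONO, as TBP-associated factors or as other general transcription factors, 1 has a named probe. It is Taf1a, which encodes a subunit of the TBP-containing complex that starts ribosomal RNA synthesis with RNA polymerase I. Its level was 2.41, 2.34, 2.81 and 3.44 on D0 replicates 1 to 4 and 3.41, 3.15, 3.49 and 3.20 on D65 replicates 1 to 4. On D0 replicate 4 Taf1a deviated from the other D0 arrays by 0.92, where Tbp and Nono were low, and it lay within the D65 values. The log2 difference of 0.56 (SE 0.27, limma adjusted p 0.14) was not called, and without D0 replicate 4 it was 0.79 (adjusted p 0.0123), below the minimum change.

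The settings of the analysis moved Tbp across zero and Nono across the threshold, as the plot of differences by setting shows. Under 25 alternatives the difference of Nono was below 0 in all, and -0.51 was the value nearest 0. That of Tbp was below 0 in 24 of 25, from -1.41 to 0.07. The 16 alternatives for Nono minus Tbp gave -0.74 to -0.50. Alternatives that changed only the probe filter, the replicate block or limma's variance options cannot move the difference of a gene. The replicate block likewise cannot move Nono minus Tbp, so these add nothing to the counts of direction.

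**Figure D5:**
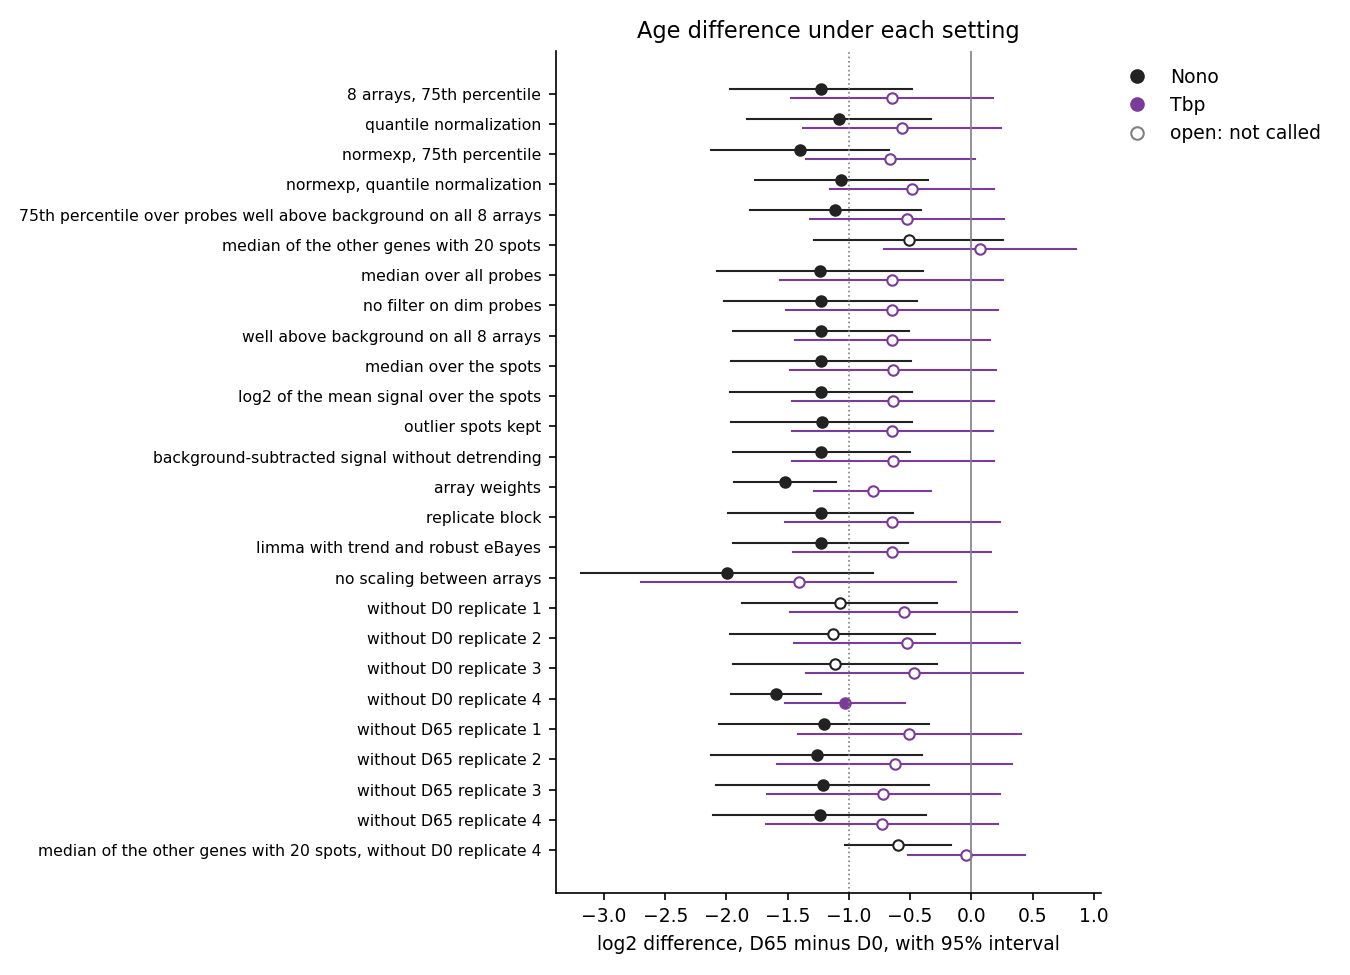
Log2 difference D65 minus D0 of Nono and Tbp under each setting, with 95% limma intervals, where filled points were called, open points were not, and the dotted line marks the minimum change. Nono is open in 5 settings, and Tbp is filled in 1, without D0 replicate 4.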

How the data were processed

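RNA of 8 muscle samples, depleted of ribosomal RNA and copied with random primers per the labels' protocols, was measured on 1-colour Agilent arrays. Per the file headers, the authors read them with Agilent Feature Extraction 11.0.1.1 on a grid built on mm9. Spot values in the deposited files are an intensity on a linear scale, already background-subtracted and on some arrays corrected for a surface trend. Raw brightness, local background brightness and 0/1 marks of detection, saturation and outliers stand beside it, per the file headers. Where a probe lies in its transcript is not given in the sources used here. A deposited table of normalized values was not used here.

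Control spots and outlier spots were left out, log2 processed signals were averaged over the spots of a probe and the 75th percentile of each array was subtracted. Probes well above background (in over 50% of their spots) on all 4 arrays of an age were kept. The ages were fitted with limma 3.58.1 in R 4.3.3 over 34948 probes, with Benjamini-Hochberg adjustment. Exact permutation tests ran over arrays. Other steps used Python 3.11.15. The limma step was checked on simulated data. Names came from a RefSeq table of GRCm38.p6, where 116 of 123 RefSeq probes matched. The members and lists were chosen with earlier results of these data known. Named genes were the members, the other genes with 20 spots, list members with a named probe, and the 5 genes closest to each member by correlation, with further names marked as chosen after their values were seen. Alternatives changed background correction, scaling, filters, spot summaries, weights, pairing and arrays. The number of arrays limits the precision.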

Additional observations from a re-analysis of the deposited data

Results flagged for a closer look

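Among 6 groups of 4 arrays examined for an array far from the rest (Nono, Tbp and their difference at each age), 2 had one, and chance gives about 1 in 20. Both were D0 replicate 4. The 6 groups are not independent, as both flags fall on the same array and the difference is built from both levels. The count therefore cannot be set against the chance rate. The level of Nono there was 3.61, and the gap to the next array made up 0.889 of the whole range of the D0 arrays. The level of Tbp there was 0.34, with a gap of 0.843 of the range. The values of Nono minus Tbp had no such array at either age. The array was also dimmer than the other D0 arrays, with a 75th percentile of 136.5 against 255.7 to 309.2, and the part of this in the levels was not tested.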

How the results depend on the processing

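Of 25 alternatives each, 20 called Nono and 24 did not call Tbp, as with the reported setting. All 16 kept the direction of Nono minus Tbp, which the replicate block among them could not have changed. Scaled to the median of the other genes with 20 spots, Nono differed by -0.51 and was not called, and Tbp by 0.071 in the opposite direction. With this scaling and without D0 replicate 4, Nono differed by -0.60 (limma adjusted p 0.0186, within 0.000123 to 0.26 over all alternatives), under the minimum change, and Tbp by -0.04. This alternative was chosen after seeing the data, as was the one with no scaling. It called 20733 of 34948 probes, 18921 higher and 1812 lower, and the median log2 difference of all these probes was 1.11. Leaving out 1 array at a time gave -1.59 to -1.08 for Nono, which was not called when D0 replicate 1, 2 or 3 was the one left out. It gave -1.03 to -0.47 for Tbp, called only without D0 replicate 4, -0.70 to -0.50 for Nono minus Tbp, and 6898 to 9243 called probes against 7739. Normexp background correction left 4475 called probes, or 4241 if arrays were also quantile normalized. The causes were not tested. Replicates of an age share a number with a slide column, and same-numbered arrays deviated together for replicates 2 and 3 (correlations of 0.236 and 0.284) but not for 1 and 4 (-0.116 and -0.129), so the numbers were not taken to pair the samples. With replicate number as a block Nono differed by -1.23 (adjusted p 0.0289), Tbp by -0.65, and 7750 probes were called. Tbp, at 6.07 to 11.6 times the background brightness on D65 arrays, is nearer to the limit of detection than Nono.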
